A study of Mus musculus with 24 samples.

Results

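The 55 genes described here encode the machinery of mitosis: the cyclins, kinases and phosphatases that drive cells into it, the kinetochore and its checkpoint, the motors and scaffolds of the spindle, and the condensin ring with topoisomerase II. They were taken by symbol from a list of named mitotic genes, which was drawn up with earlier results of these data known. All 55 were found among the 53465 genes of the deposited count table, and all 55 were among the 14249 genes that passed the filter on low counts. RNA was measured in RN2, a mouse acute myeloid leukaemia line, and every group shares its genotype, Mll-Af9 and NrasG12D. Before the experiment the cells received a retroviral vector from which doxycycline switches on a short hairpin RNA. Control clones 2 and 7 carried shRen713, clones 1 and 5 carried shOgdh346, and a different pair, clones 3 and 5, carried shOgdh2081. Both Ogdh hairpins target the mRNA of the 2-oxoglutarate dehydrogenase subunit. Each clone was sampled at day 0, untreated, and at day 4 of doxycycline, with 2 libraries each time, which gives 24 libraries. The clone is the replicate, n = 2 per hairpin, and nothing says that the libraries of a clone came from separate cultures.

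A cell enters mitosis when cyclin B switches on the kinase CDK1, which the CDC25 phosphatases release from inhibition. Kinetochores assembled on centromeric chromatin then attach to spindle microtubules, and unattached ones hold the anaphase-promoting complex in check until CDC20 can activate it, securin is destroyed and separase cuts cohesin. Most of these genes are transcribed late in the cell cycle, so their mRNA is low in resting cells and high in dividing ones, and fast-growing leukaemia cells in culture express nearly all of them. In bulk RNA, fewer dividing cells and less of an mRNA per cell cannot be told apart.

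Total counts ran from 7209186 to 20705468 per library. Ogdh itself, in CPM, which are counts scaled to the library's total, stood at day 0 between 202 and 250 in the control, between 126 and 150 with shOgdh346 and between 163 and 235 with shOgdh2081. Before doxycycline the Ogdh hairpins minus the control gave -0.50 ± 0.27 (log2, SE), which did not pass the test (edgeR adjusted p = 1.00), though the shOgdh346 libraries did not overlap the control. At day 4 it stood between 206 and 253 in the control and between 32.3 and 70.9 in the 8 Ogdh hairpin libraries. Its mean net change was -1.76 ± 0.18 (log2, SE; edgeR adjusted p = 0.000400). Myeloid genes such as Elane, Ctsg and Kit were expressed in every group. Of 15 lymphoid, erythroid, endothelial and stromal markers only Pecam1 was above 2 CPM in the group means, and Cd3e and Hbb-bs had no count in any library.

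Nearly the whole set was lower after 4 days of an Ogdh hairpin. The mean net change, which is the day 4 minus day 0 change averaged over both Ogdh hairpins minus the same change in the control clones, fell in 52 of the 55 genes by edgeR's quasi-likelihood test at a Benjamini-Hochberg adjusted p under 0.05 over all genes tested, and none rose. The same rule called 19.8% of all genes lower and 17.9% higher. Their median was -0.85 on the log2 scale, with quartiles of -0.95 and -0.66, against -0.002 over all genes tested, and 8.15% of all genes lay below the mitotic median. The mean net change ranged from -1.87 for Cenpm to 0.15 for Smc4. In 53 genes the change of each Ogdh clone was below that of each control clone, 8 of 8 comparisons, against 29.2% of all genes. The 3 genes that missed the threshold were Cdc25b, Pttg1 and Smc4. Summed over the 55 genes, the level ran from 7385 to 8737 CPM in the 12 libraries of day 0, from 7900 to 8634 in the control at day 4, from 4519 to 4857 with shOgdh346 and from 4581 to 6058 with shOgdh2081.

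**Figure D1:**
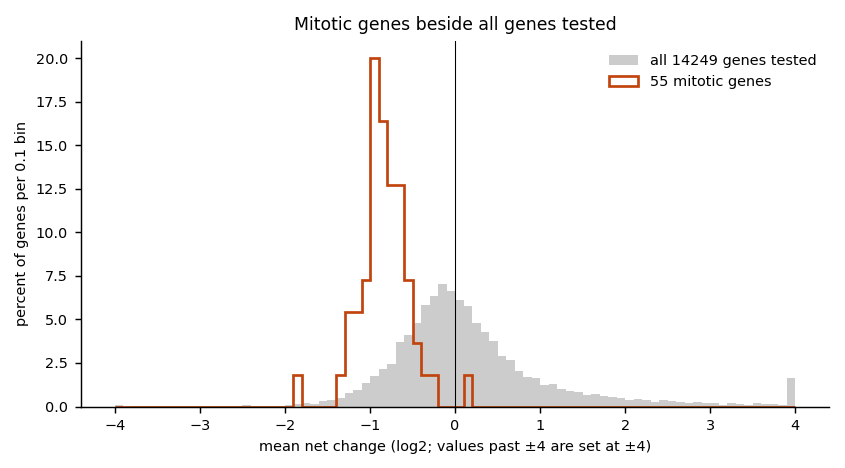
Mean net change on the log2 scale (horizontal) against the percent of genes in each bin (vertical), for the 14249 genes tested (grey) and the 55 mitotic genes (outline). The mitotic genes have a median of -0.85 and all genes one of -0.002.

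**Figure D2:**
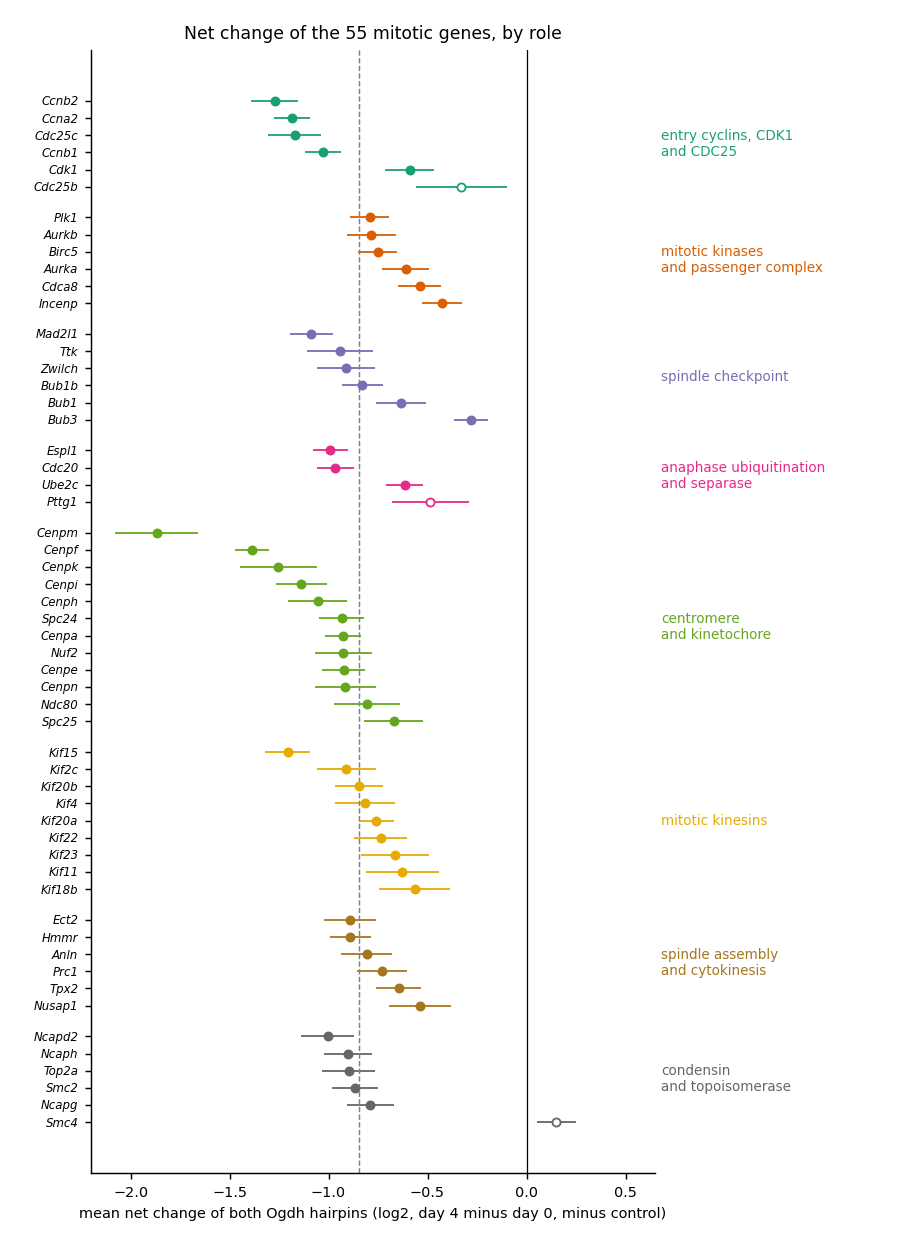
Mean net change (log2) of each of the 55 genes, grouped by role, with bars for the standard error; filled points have an adjusted p under 0.05, open points do not, and the dashed line is the median of the set. The 3 open points are Cdc25b, Pttg1 and Smc4.

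The promoters of this family are the textbook case of late cell cycle control, so they are shown beside the values. NF-Y binds CCAAT boxes, and the MuvB proteins, which work as a repressor in the DREAM complex and as an activator with MYBL2 and FOXM1, bind a cell cycle homology region (CHR) whose usual form is TTTGAA. RefSeq promoter windows (build GRCm38.p6, 250 bases before to 50 after a start) matched 46 of the 55 genes with 51 windows. Ccna2, Cdc25c, Aurkb, Incenp, Zwilch, Spc24, Kif20a, Tpx2 and Smc4 had no entry. Below are the 140 bases before the RefSeq start of 9 genes, with CCAAT and TTTGAA on either strand in capitals (ATTGG and TTCAAA are the same motifs read on the other strand). Cdk1, Bub1b, Cdc20, Kif11, Ncaph and Top2a are core members, Ccnb2 and Espl1 fell most among the entry and the anaphase genes, and Cenpf had the smallest p of the set. At most 30 bases of each stretch lie in an exon of GENCODE M21, which starts Cdk1, Cdc20 and Espl1 farther upstream than RefSeq.
Ccnb2 (chr9:70421555-70421694, minus strand): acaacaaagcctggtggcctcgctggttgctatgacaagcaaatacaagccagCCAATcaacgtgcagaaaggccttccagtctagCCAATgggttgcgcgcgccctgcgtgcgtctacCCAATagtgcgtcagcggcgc
Cdk1 (chr10:69352913-69353052, minus strand): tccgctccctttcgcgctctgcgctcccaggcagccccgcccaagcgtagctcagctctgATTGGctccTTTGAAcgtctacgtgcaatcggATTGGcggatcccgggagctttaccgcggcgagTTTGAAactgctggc
Bub1b (chr2:118598071-118598210, plus strand): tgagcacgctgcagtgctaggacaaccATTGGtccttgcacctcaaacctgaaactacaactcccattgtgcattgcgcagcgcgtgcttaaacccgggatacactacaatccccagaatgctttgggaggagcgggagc
Cdc20 (chr4:118437344-118437483, minus strand): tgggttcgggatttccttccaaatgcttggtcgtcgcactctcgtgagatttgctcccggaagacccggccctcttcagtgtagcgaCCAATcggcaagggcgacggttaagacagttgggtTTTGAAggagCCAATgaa
Espl1 (chr15:102296153-102296292, plus strand): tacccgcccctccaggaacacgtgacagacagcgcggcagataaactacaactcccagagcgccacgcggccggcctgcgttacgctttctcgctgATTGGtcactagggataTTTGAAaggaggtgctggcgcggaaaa
Cenpf (chr1:189688087-189688226, minus strand): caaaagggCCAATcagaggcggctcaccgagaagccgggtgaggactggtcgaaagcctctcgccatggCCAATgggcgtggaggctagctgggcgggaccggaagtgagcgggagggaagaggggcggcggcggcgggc
Kif11 (chr19:37376242-37376381, plus strand): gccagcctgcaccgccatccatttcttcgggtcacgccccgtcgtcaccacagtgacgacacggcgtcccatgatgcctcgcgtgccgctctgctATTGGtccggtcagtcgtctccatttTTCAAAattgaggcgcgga
Ncaph (chr2:127133955-127134094, minus strand): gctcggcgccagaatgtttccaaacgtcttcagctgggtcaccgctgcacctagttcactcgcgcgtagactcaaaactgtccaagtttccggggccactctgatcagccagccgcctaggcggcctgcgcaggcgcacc
Top2a (chr11:99024190-99024329, minus strand): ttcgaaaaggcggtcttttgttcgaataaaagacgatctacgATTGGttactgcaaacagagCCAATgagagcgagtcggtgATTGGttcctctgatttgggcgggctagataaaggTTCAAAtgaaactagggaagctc
CCAAT was found on either strand in 40 of the 51 windows, 78.4%, against 37.4% of all 32851 windows and 38% of the 12682 windows of genes tested. TTTGAA was found in 35 of 51, 68.6%, against 17.9% of all windows and 12.3% of those of genes tested. Both motifs stood in 58.8% of the mitotic windows and 6.95% of all. Of the other CHR forms, TTTAAA was in 17.6% against 13.2%, and TTCGAA in 9.8% against 1.56%. Counted from the start, with negative positions before it, the CHR motif of Cdc20 began at -18, between CCAAT boxes at -53 and -8. Espl1 had the pair at -44 and -27, Kif11 at -45 and -19, and Cdk1 had CHR motifs at -71 and -15. Top2a had 6 CCAAT boxes, from -227 to -58, and CHR motifs at -179 and -23. Ccnb2 had CCAAT boxes at -87, -54 and -21, and Cenpf at -132 and -71, with a TTTGAA just after the start in both, at 5 and 3. Ccnb1 held CCAAT boxes and no TTTGAA, as did Cenpm, the gene that fell most of all. Each held another CHR form, TTTAAA at -42 in Ccnb1 and TTCGAA at -83 in Cenpm. Neither CCAAT nor TTTGAA was found in the windows of Birc5, Mad2l1, Pttg1, Nuf2, Nusap1 and Ncaph. The median net change was -0.82 in the 32 genes with TTTGAA and -0.93 in the 14 without, and it was -0.87 in the 35 with CCAAT and -0.85 in the 11 without. Among those 14, Ccnb1, Cdc25b, Birc5, Bub1, Cenpe and Cenpm held TTTAAA or TTCGAA, so the 14 do not all lack a CHR form. In the first of its windows Bub3, which fell least of those that passed the test, had a CHR motif at -43 between CCAAT boxes at -74 and -32. These are matches of letters in a window, with no binding measured.

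**Figure D3:**
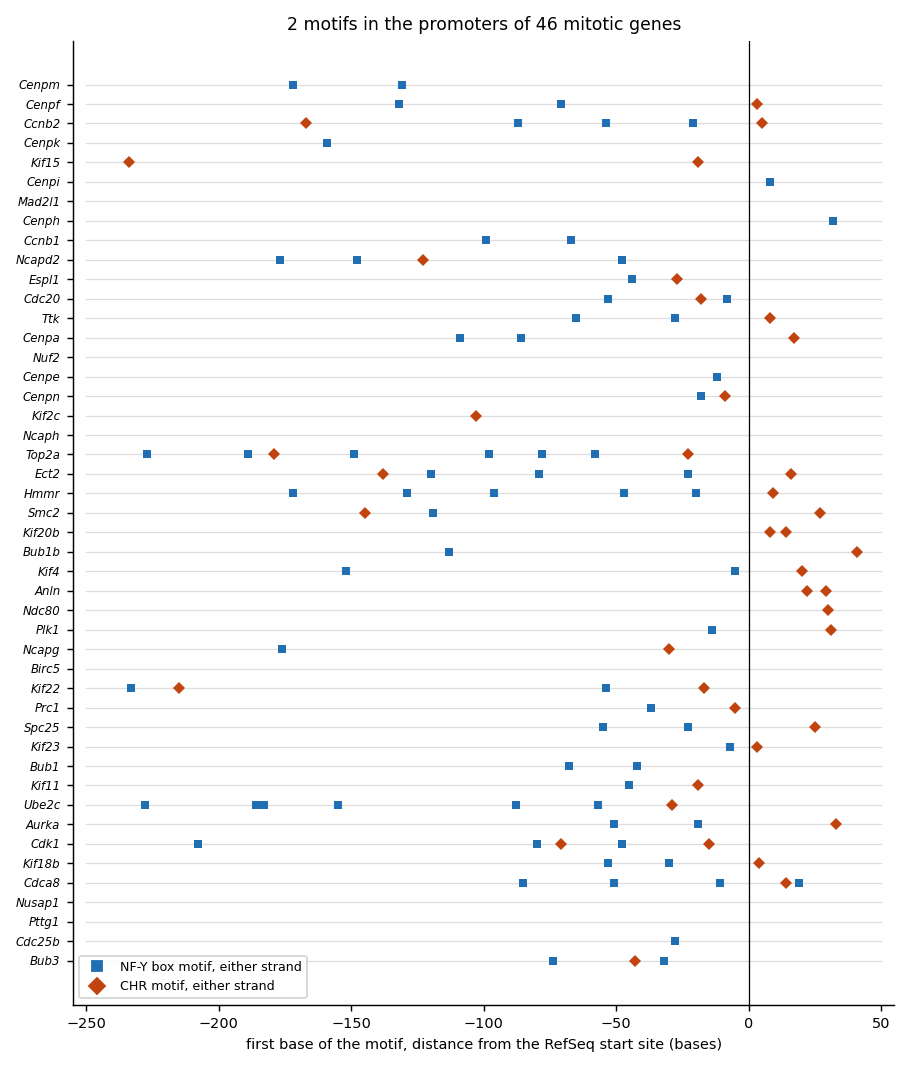
Position of each motif in bases from the RefSeq start (horizontal) in the first listed window of 46 genes, ordered from the most negative mean net change at the top to the least at the bottom; squares are CCAAT (the NF-Y box) and diamonds TTTGAA (the CHR motif), on either strand. Both motifs recur down the whole order, from Ccnb2 near the top to Bub3 at the bottom.

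Of the 6 genes that drive entry into mitosis, 5 fell, with a median net change of -1.10, the lowest of the 8 roles. Ccnb1 encodes cyclin B1, the partner of CDK1 (ENSMUSG00000041431, chr13:100778650-100786570, minus strand). Its level in the 12 libraries of day 0 had a median of 124 CPM, with 116 as the lowest and 138 as the highest. At day 4 it was 105, 111, 113 and 102 CPM in the control, 46.9, 50.2, 50.8 and 49.5 with shOgdh346, and 57.3, 56.8, 64.7 and 56.5 with shOgdh2081. Every Ogdh hairpin library of day 4 was below every other library. The mean net change was -1.03 ± 0.09 (SE; adjusted p = 0.000111), a fall of 2.04-fold.

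Cdk1 encodes the mitotic kinase itself (ENSMUSG00000019942, chr10:69335146-69352938, minus strand). Its day 0 level had a median of 251 CPM, a lowest of 239 and a highest of 288. At day 4 the control libraries held 226, 228, 232 and 228 CPM, the shOgdh346 libraries 149, 151, 136 and 127, and the shOgdh2081 libraries 142, 132, 184 and 182. The Ogdh hairpin libraries again lay below all others, with clone 5 of shOgdh2081 the highest of them. Cdk1 fell by 0.59 ± 0.12 (SE; adjusted p = 0.00549), less than its cyclins, and without control clone 2 the call was lost. Ccnb2 and Ccna2, the cyclins B2 and A2, fell by 1.27 ± 0.12 and 1.18 ± 0.09 (adjusted p = 0.000140 and 5.91e-05). Cdc25c, a phosphatase that activates CDK1, fell by 1.17 ± 0.13 (adjusted p = 0.000324). Its relative Cdc25b had a net change of -0.33 ± 0.23 (adjusted p = 0.302): the control libraries of day 4 held 44.6, 39.2, 32.9 and 31.9 CPM and the Ogdh hairpin libraries between 21.4 and 32.6, so the groups overlapped.

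All 6 mitotic kinases and members of the chromosomal passenger complex fell, with a median of -0.68. PLK1 drives centrosome maturation and mitotic entry. Plk1 (ENSMUSG00000030867, chr7:122159439-122169873, plus strand) had a day 0 median of 88.9 CPM, from 74.9 to 111. Its day 4 libraries held 91.1, 101, 81.4 and 97.6 CPM in the control, 46.9, 55.2, 52.1 and 47.7 with shOgdh346, and 49.9, 56, 60.3 and 64.6 with shOgdh2081. No Ogdh hairpin library of day 4 reached the lowest of the others. The net change was -0.79 ± 0.10 (SE; adjusted p = 0.000478), the largest of this role. Aurka, the spindle pole kinase, fell by 0.61 ± 0.12 (adjusted p = 0.00371).

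Aurora B, encoded by Aurkb, is the enzyme of the passenger complex, which corrects faulty attachments and directs cytokinesis (ENSMUSG00000020897, chr11:69045647-69051664, plus strand). At day 0 its median was 155 CPM, from 138 to 174. At day 4 it stood at 145, 160, 150 and 163 CPM in the control, 79.7, 85.5, 78.3 and 86.8 with shOgdh346, and 80.2, 79.2, 110 and 123 with shOgdh2081. Here the 2 libraries of shOgdh2081 clone 5 stood apart from the 6 other Ogdh hairpin libraries, and all 8 were below the control. Aurkb fell by 0.78 ± 0.12 (adjusted p = 0.00134). The other subunits of the complex fell by 0.75 ± 0.10 (Birc5, survivin), 0.54 ± 0.11 (Cdca8, borealin) and 0.43 ± 0.10 (Incenp, the scaffold), with adjusted p of 0.000593, 0.00476 and 0.00986. Incenp was the smallest fall of the role, and its call was lost without either control clone. That of Cdca8 was lost without control clone 2.

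Of the 6 spindle checkpoint genes all fell, with a median of -0.87. Bub1b encodes BUBR1, part of the complex that inhibits CDC20 (ENSMUSG00000040084, chr2:118598211-118641591, plus strand). Its day 0 libraries had a median of 186 CPM, from 164 to 205. The day 4 values were 204, 197, 204 and 199 CPM in the control, 97.6, 90, 110 and 105 with shOgdh346, and 108, 99.5, 130 and 134 with shOgdh2081. The groups were far apart, since the highest Ogdh hairpin value was 134 and the lowest control value 197. The net change was -0.83 ± 0.10 (SE; adjusted p = 0.000503). Mad2l1, whose product MAD2 binds CDC20, fell most of this role, by 1.09 ± 0.11 (adjusted p = 0.000187). Ttk, the kinase MPS1 that starts the signal, fell by 0.94 ± 0.17, Zwilch, of the RZZ complex, by 0.91 ± 0.15, and Bub1 by 0.63 ± 0.13 (adjusted p = 0.00244, 0.00165 and 0.00449).

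Bub3, which also serves interphase cells, was the smallest fall in the whole set that passed the test. At day 0 it had a median of 231 CPM, from 220 to 261. At day 4 the control held 231, 223, 202 and 207 CPM, and the Ogdh hairpin libraries 171, 168, 173 and 163 with shOgdh346 and 179, 165, 194 and 189 with shOgdh2081. The groups did not overlap, with 194 the highest value of the one and 202 the lowest of the other. Its net change of -0.28 ± 0.09 (adjusted p = 0.0304) lost the call in 8 of 39 alternative analyses, among them those without either control clone.

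Of the 4 genes of anaphase, 3 fell, with a role median of -0.79. Cdc20 activates the anaphase-promoting complex and is the target of the checkpoint (ENSMUSG00000006398, chr4:118432901-118437352, minus strand). Its day 0 median was 130 CPM, from 116 to 144. At day 4 it was 112, 117, 119 and 124 CPM in the control, 46.4, 48.2, 51.4 and 50.1 with shOgdh346, and 59.2, 64.8, 69.4 and 75.7 with shOgdh2081. The 3 hairpins did not overlap at day 4, with shOgdh346 lowest. Cdc20 fell by 0.97 ± 0.09 (SE; adjusted p = 0.000161), by 1.15 with shOgdh346 and 0.78 with shOgdh2081. The difference between the hairpins, -0.38 ± 0.11, had the smallest p of the set and did not pass (adjusted p = 0.294). Espl1, the protease separase, fell by 0.99 ± 0.09 (adjusted p = 0.000121). Ube2c, the ubiquitin-conjugating enzyme of the complex, fell by 0.62 ± 0.09 (adjusted p = 0.00119). Pttg1, securin, the inhibitor of separase, had a net change of -0.49 ± 0.20 (adjusted p = 0.0803). It was low throughout, with 12.8, 12.4, 13.8 and 15.2 CPM in the control at day 4, between 6.02 and 11.4 with shOgdh346 and between 8.7 and 12.7 with shOgdh2081.

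All 12 centromere and kinetochore genes fell, with a median of -0.93, and the largest falls of the whole set were here. Cenpm, a subunit of the constitutive centromere-associated network on which the kinetochore is built, had a day 0 median of 23.4 CPM, from 18.9 to 25.3. At day 4 it was 24.4, 22.4, 24.5 and 23.3 CPM in the control, 3.59, 5.19, 6.59 and 6.03 with shOgdh346, and 6.66, 5.44, 5.18 and 6.35 with shOgdh2081. All 8 Ogdh hairpin libraries lay between 3.59 and 6.66 CPM, and no library of the other groups was below 18.9. The net change was -1.87 ± 0.21 (SE; adjusted p = 0.000307), a fall of 3.65-fold. The other network subunits also fell: Cenpk by 1.25 ± 0.20, Cenpi by 1.14 ± 0.13, Cenph by 1.06 ± 0.15 and Cenpn by 0.92 ± 0.15. Cenpf, an outer protein of the kinetochore, fell by 1.39 ± 0.09 (adjusted p = 2.75e-05, the smallest of the set), from a day 0 median of 123 CPM to between 44.3 and 61.1 in the 8 Ogdh hairpin libraries.

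Cenpa encodes the histone variant that marks centromeric chromatin (ENSMUSG00000029177, chr5:30666777-30674830, plus strand). It stood at a median of 168 CPM at day 0, from 153 to 201. The day 4 libraries had 184, 175, 161 and 162 CPM in the control, 76.1, 74.1, 81.7 and 80.2 with shOgdh346, and 74.4, 75.4, 83.6 and 97.7 with shOgdh2081. The highest Ogdh hairpin value, 97.7 CPM, was well below the lowest control value. Cenpa fell by 0.93 ± 0.09 (adjusted p = 0.000178).

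The NDC80 complex, which grips the microtubule, fell in all 4 subunits. Ndc80 itself (ENSMUSG00000024056, chr17:71496100-71526857, minus strand) had a day 0 median of 54.4 CPM, from 47.3 to 59.5. Its day 4 values were 63.4, 61.4, 57.6 and 60.9 CPM in the control, 37.9, 37.3, 32.3 and 29.4 with shOgdh346, and 31.3, 25.6, 40.6 and 44.7 with shOgdh2081. The control libraries of day 4 lay above all control libraries of day 0, so part of the net change of -0.80 ± 0.17 (adjusted p = 0.00546) is the control's own 0.18 ± 0.14, which did not pass the test (adjusted p = 0.446). Without control clone 2 the call of Ndc80 was lost. The other subunits fell by 0.93 ± 0.14 (Nuf2), 0.93 ± 0.11 (Spc24) and 0.67 ± 0.15 (Spc25, the least of the role, with its call lost without control clone 2). Cenpe, a kinesin of the kinetochore, fell by 0.92 ± 0.11 (adjusted p = 0.000380).

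All 9 mitotic kinesins fell, with a median of -0.76. Kif11 encodes Eg5, which pushes the spindle poles apart (ENSMUSG00000012443, chr19:37376403-37421859, plus strand). Day 0 libraries had a median of 277 CPM, from 247 to 311. At day 4 there were 319, 302, 290 and 266 CPM in the control, 204, 201, 172 and 168 with shOgdh346, 158 and 144 in shOgdh2081 clone 3, and 273 and 258 in shOgdh2081 clone 5. That last clone overlapped the control, and its own change was -0.10, against -0.80 in clone 3. The net change was -0.63 ± 0.18 (SE; adjusted p = 0.0300), and the call was lost without either control clone or without shOgdh346 clone 5. Kif15, a motor that can work beside Eg5, fell most, by 1.21 ± 0.11 (adjusted p = 0.000142). The smallest fall was that of Kif18b, which trims astral microtubules, at 0.57 ± 0.18 (adjusted p = 0.0388), and its control and Ogdh hairpin libraries overlapped at day 4. The calls of Kif18b and Kif23 were lost without either control clone, and that of Kif18b also without shOgdh346 clone 5 or without the day 0 library numbered 1 of control clone 7 or of shOgdh2081 clone 3. Between them were Kif2c (MCAK) at -0.91, Kif20b at -0.85, Kif4 at -0.82, Kif20a (MKLP2) at -0.76, Kif22 at -0.74 and Kif23 (MKLP1) at -0.67. In the annotation 29.3% of the exonic bases of Kif20a and 15.1% of those of Kif4 lie opposite an exon of a gene on the other strand, Cdc23 and Pdzd11. Without the counting's strand setting, reads of such pairs cannot be told apart.

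Of the 6 genes of spindle assembly and cytokinesis all fell, with a median of -0.77. TPX2 brings Aurora A to the spindle and seeds microtubules. Tpx2 (ENSMUSG00000027469, chr2:152847964-152895321, plus strand) had a day 0 median of 215 CPM, from 175 to 248. The day 4 values were 246, 247, 229 and 221 CPM in the control, 137, 134, 142 and 140 with shOgdh346, and 139, 137, 189 and 178 with shOgdh2081. Clone 5 of shOgdh2081 was again nearer to the control than the other 3 Ogdh clones, without reaching it. Tpx2 fell by 0.65 ± 0.11 (adjusted p = 0.00242). Ect2, the exchange factor that starts the cleavage furrow, fell by 0.89 ± 0.13 (adjusted p = 0.00112). Hmmr, of the spindle poles, Anln, anillin of the contractile ring, and Prc1, which bundles the central spindle, fell by 0.89 ± 0.11, 0.81 ± 0.13 and 0.73 ± 0.13. Of the net fall of Anln, 0.44 is the control's rise. Nusap1, a microtubule binder, fell least, by 0.54 ± 0.16 (adjusted p = 0.0262), with 80.4 and 83.9 CPM in shOgdh2081 clone 5 against 76.9 to 96.2 in the control at day 4. Its call was lost without either control clone or without shOgdh346 clone 5.

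Condensin I compacts mitotic chromosomes, and its 5 subunits did not move alike: 4 fell and Smc4 did not. Smc2 and Smc4 are the partners of the ATPase core. Smc2 fell by 0.87 ± 0.12 (adjusted p = 0.000633), from a control of 302, 313, 308 and 271 CPM at day 4 to between 140 and 200 in the Ogdh hairpin libraries. Smc4 had a day 0 median of 501 CPM, from 430 to 609. At day 4 it was 549, 562, 470 and 435 CPM in the control, 614, 570, 516 and 511 with shOgdh346, and 679, 665, 607 and 585 with shOgdh2081. The Ogdh hairpin libraries overlapped the control and lay on its upper side, and the change was above 0 in all 6 clones. Smc4 rose from day 0 to day 4 by 0.23 ± 0.08 with each Ogdh hairpin (edgeR adjusted p = 0.0305 with shOgdh346 and 0.0349 with shOgdh2081). In the control its change was 0.08 ± 0.08 (adjusted p = 0.589). Its net change was 0.15 ± 0.10 (adjusted p = 0.250), with a range of 0.07 to 0.20 over 39 alternative analyses, 38 of which did not call it.

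The condensin I subunits that are not shared with condensin II fell. Ncaph closes the ring (ENSMUSG00000034906, chr2:127103809-127133954, minus strand). Its day 0 median was 101 CPM, from 90.2 to 114. At day 4 the values were 110, 107, 98.1 and 102 CPM in the control, 48.3, 46, 48.8 and 48.9 with shOgdh346, and 48, 50.3, 65.9 and 68.7 with shOgdh2081. All 8 Ogdh hairpin libraries were below all others, at a nearly uniform level but for shOgdh2081 clone 5. Ncaph fell by 0.90 ± 0.12 (adjusted p = 0.000668), Ncapd2 by 1.00 ± 0.14 and Ncapg by 0.79 ± 0.12 (adjusted p = 0.000661 and 0.00116).

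Top2a, topoisomerase II alpha, which untangles sister DNA and is a drug target in leukaemia, was the member with the most counts (ENSMUSG00000020914, chr11:98992943-99024189, minus strand). It had a day 0 median of 940 CPM, from 851 to 1030. At day 4 there were 1040, 1020, 939 and 909 CPM in the control, 573, 565, 499 and 474 with shOgdh346, and 501, 464, 709 and 668 with shOgdh2081. No Ogdh hairpin library of day 4 reached the lowest of the others. The net change was -0.90 ± 0.13 (SE; adjusted p = 0.00113).

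**Figure D4:**
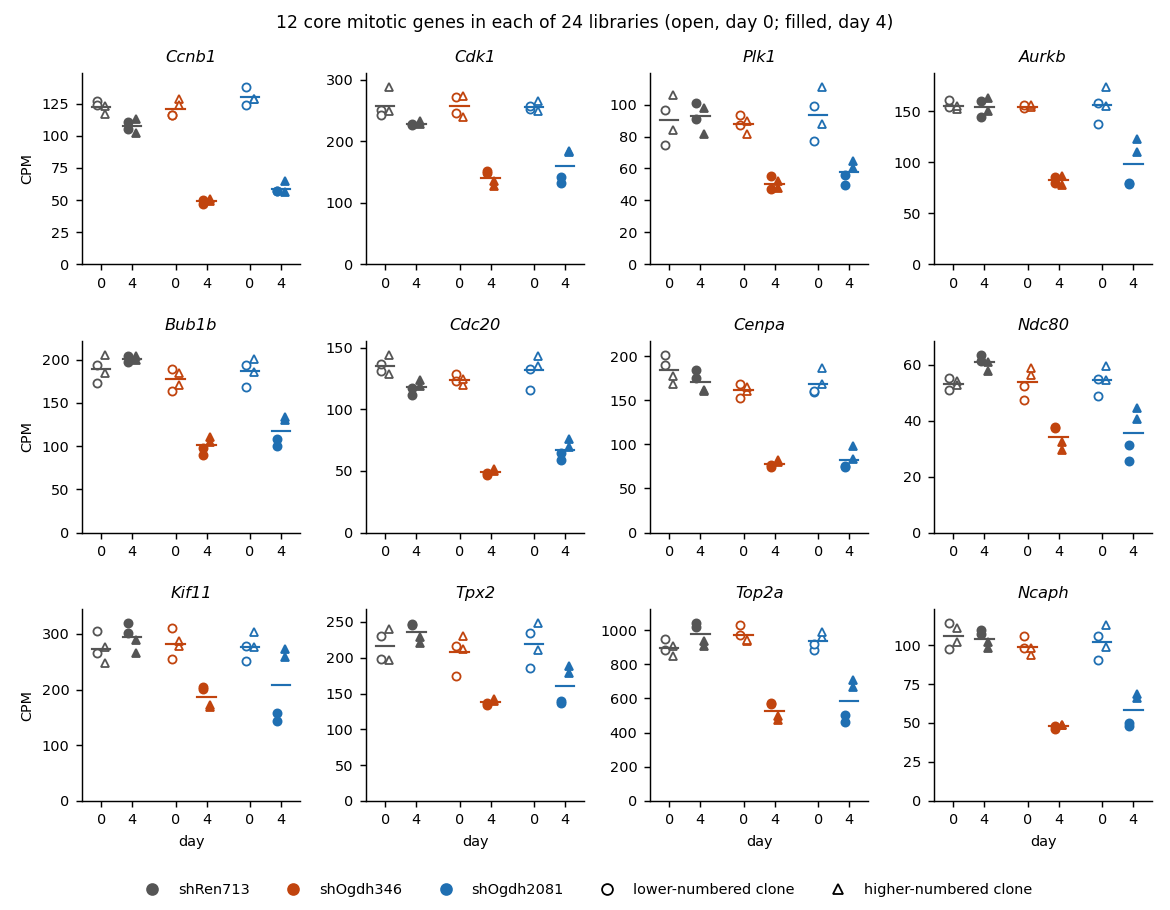
CPM (vertical, from 0) of the 12 core genes in each library by hairpin and day (horizontal); open symbols are day 0, filled symbols day 4, circles and triangles the lower- and higher-numbered clone of a hairpin, and bars the mean of 4 libraries. For 11 of the 12 genes every Ogdh hairpin library of day 4 is below every control library of day 4, and Kif11 is the exception.

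Each hairpin gave the fall on its own, and their difference did not pass the test. With shOgdh346 the net change fell in 51 of 55 genes (18.4% of all genes were lower and 16.4% higher), with a median of -0.90. With shOgdh2081 it fell in 46 (14.2% lower and 13.6% higher), with a median of -0.78, and the 46 were among the genes called with shOgdh346. Both net changes use the same control clones, and without control clone 2 or 7 the count with shOgdh2081 was 28 or 30 (4.15% or 3.52% of all genes lower). Without the clone as a block it was 24 (4.97%). The hairpins' own changes share no sample, and over the 55 genes they had a Pearson r of 0.95 and a Spearman rho of 0.93, with genes that are not independent. The changes of control clones 2 and 7 had an r of 0.79 and a rho of 0.78. Agreement in the order of the genes was thus also seen without an Ogdh hairpin. The 9 that missed the threshold with shOgdh2081 were Cdc25b, Pttg1, Smc4, Incenp, Bub3, Kif11, Kif18b, Kif23 and Nusap1, the last 6 with net changes of -0.56 to -0.27. In the test of the difference, shOgdh346 minus shOgdh2081, edgeR called 0 of 55 genes (0.0491% of all genes were lower and 0.0561% higher). DESeq2 also called 0, and 4 were lower at an unadjusted p under 0.05, namely Cdc20, Espl1, Spc24 and Kif15, against 4.52% of all genes. The difference was negative in 50 of 55 genes, against 53.4% of all genes, with a median of -0.14 against -0.02 over all genes.

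The shallower mean with shOgdh2081 went with 1 of its clones. The median change of the 55 genes from day 0 to day 4 was -0.81 and -0.84 in shOgdh346 clones 1 and 5, -0.84 in shOgdh2081 clone 3 and -0.47 in shOgdh2081 clone 5, against 0.12 and 0.04 in control clones 2 and 7. The summed level at day 4 was 61.2%, 58.4%, 60.2% and 71.9% of that at day 0 in the Ogdh clones, in the same order, and 107% and 102% in the control clones. In shOgdh2081 clone 5 the kinesins had a median change of -0.24 (Kif23 0.07, Kif20b -0.09, Kif11 -0.10), the checkpoint genes -0.36 and the spindle and cytokinesis genes -0.27. The entry genes in the same clone had a median of -1.04 (Ccnb2 -1.19, Cdc25c -1.19, Ccnb1 -1.06) and the anaphase genes -0.81, and Cenpm was at -1.96, beside medians of -1.25 to -0.77 for the entry and anaphase genes in the other Ogdh clones. Ogdh stood at 163 and 172 CPM at day 0 and 32.3 and 37.8 at day 4 in shOgdh2081 clone 5. In shOgdh2081 clone 3 it stood at 180 and 235 CPM at day 0 and 68.5 and 70.9 at day 4. The differences between single clones have no replicate and were not tested.

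**Figure D5:**
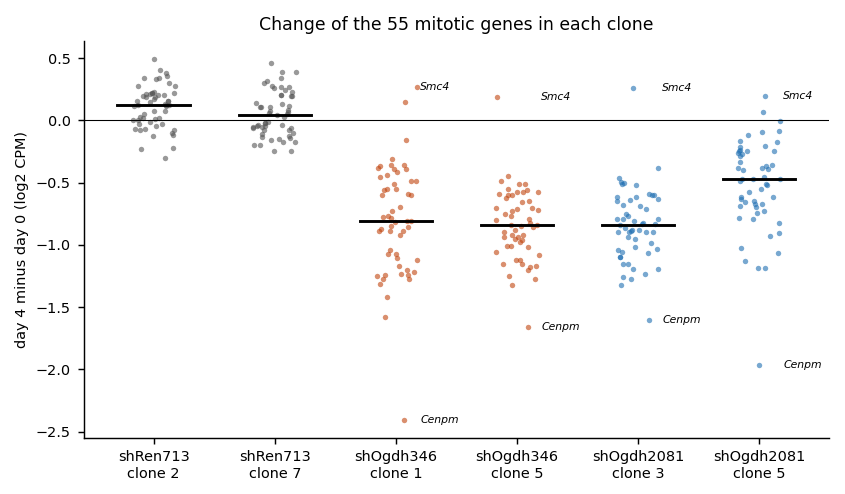
Change from day 0 to day 4 (log2 CPM, vertical) of each of the 55 genes (points) in the 6 clones (horizontal), with the median of a clone as a bar. The medians are 0.12 and 0.04 in the control clones, -0.81, -0.84 and -0.84 in 3 Ogdh clones and -0.47 in shOgdh2081 clone 5, with Smc4 above 0 in all and Cenpm lowest in each Ogdh clone.

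Before doxycycline the clones did not differ by hairpin in a way the test could find. At day 0 edgeR called 0 of 55 genes between the Ogdh hairpins and the control (0% of all genes were lower and 0% higher). None had an unadjusted p under 0.05, against 1.21% of all genes lower and 0.702% higher. DESeq2 called 0, against 0.014% of all genes. With shares this small over all genes, the counts of 0 do not set these genes apart. The differences ran from -0.19 to 0.18 with a median of -0.01. At day 4 the level with the Ogdh hairpins was called lower for 50 genes and higher for 0 (21.2% of all genes were lower and 17.5% higher), with a median of -0.81. Every Ogdh hairpin library of day 4 lay below every control library of day 4 for 48 of 55 genes, against 20.1% of all genes. The 7 others were Cdc25b, Pttg1, Spc25, Kif11, Kif18b, Nusap1 and Smc4. In a separate count, the 8 Ogdh hairpin libraries of day 4 were below their 8 libraries of day 0 for 39 of 55 genes, against 17.2% of all genes. Pttg1 is among these 39.

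In the control clones few of the genes passed the test. Of the 55 genes 2 rose and 0 fell (4.44% of all genes were higher and 2.44% lower), and the median change was 0.08. DESeq2 called 2, against 5.47% of all genes. At an unadjusted p under 0.05, 9 were higher and 2 lower, against 12.7% and 11.5% of all genes. Anln rose by 0.44 ± 0.11 (adjusted p = 0.0404), from 93.5, 136, 104 and 123 CPM at day 0 to 159, 168, 145 and 146 at day 4. Kif20b rose by 0.43 ± 0.10 (adjusted p = 0.0360), from 77.5, 118, 80.5 and 113 CPM to 131, 130, 132 and 124. In both genes the day 0 library numbered 1 was below number 2 in each control clone, and all 4 libraries of day 0 were below all 4 of day 4. The control's rise is part of their net changes: the hairpins' own changes were -0.38 and -0.36 for Anln and -0.52 and -0.30 for Kif20b, with shOgdh346 first. With the day 0 libraries numbered 1 alone 11 genes were called in the control, against 14.2% of all genes, and with those numbered 2 alone 0 were, against 0.912%. The count ran from 0 to 5 when 1 library of any hairpin was left out, against 1.35% to 10.3% of all genes. Leaving out a control clone leaves 1 clone in that group. In control clones 2 and 7 the changes were 0.49 and 0.39 for Anln and 0.40 and 0.46 for Kif20b. For 11 genes all control libraries of day 4 lay above all of day 0, against 9.49% of all genes, and for Ccnb1, Cdk1 and Cdc20 they lay below, against 8.34%.

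That split by library number was seen in most of the set at day 0 in all 6 clones. Between 5 and 13 of the 55 genes in each clone went the other way. The median of number 2 minus number 1 over the 55 genes was between 0.09 and 0.16 log2 in every clone at day 0. Over all genes it was between -0.02 and 0.002. At day 4 the median of the 55 genes was between -0.07 and 0.003. What the number stands for is not given in the labels. It was wide in Kif20b, with 85.5 CPM in number 1 and 128 in number 2 of shOgdh346 clone 1, and narrow in Ccnb1, with 116 in both. The mean net change kept 51 of its 52 calls with day 0 libraries numbered 1 alone and 50 with those numbered 2 alone.

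Per kilobase of the deposited transcript length, Ccnb2 had the highest level of the set in the control at day 0, at 104.8 CPM per kilobase, followed by Top2a at 99.5 and Smc4 at 91.5. The lowest were Cenpk at 4.49, Cenpi at 6.67 and Cenpf at 7.69. The net change was -1.27 for Ccnb2, -0.90 for Top2a and 0.15 for Smc4, which did not pass the test, and between -1.39 and -1.14 for the 3 lowest. Across the 55 genes the net change and the mean log2 CPM had a Pearson r of 0.36, and the net change and the transcript length one of -0.11, as descriptions over genes that share their libraries.

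Genes of the same pathways outside the set were counted in 8 lists. The list of 30 other kinetochore and centromere genes had 23 lower calls, no higher one and a median of -0.74, among them Cenps (-1.09), Knstrn (-1.02) and Pmf1 (-0.87). Of 24 other genes of cytokinesis and late mitosis 17 fell, with a median of -0.81, led by Racgap1 (-1.09), Aspm (-1.30) and Cdca3 (-1.09). Among 25 gamma-tubulin and centrosome genes tested 18 fell, with a median of -0.63, including Nek2 (-1.35), Haus4 (-1.13) and Cep192 (-0.74). All 6 genes in a list of other condensin subunits and the chromosome periphery fell, including Mki67 (-0.97), the usual marker of dividing cells, and Ncaph2 (-0.52). The list also holds the kinesin Kif14 (-0.80), which belongs to neither group.

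The other 4 lists had smaller medians. In the list of 14 cohesin genes 8 were called lower and 1 higher (Esco1, 0.49, named after its value was seen), with a median of -0.43, the falls including Smc3 (-0.86), Smc1a (-0.78) and Pds5b (-0.69). Of 17 subunits and regulators of the anaphase-promoting complex 9 fell, with a median of -0.32, among them Fbxo5 (-0.97), Anapc13 (-0.92) and Anapc15 (-0.88). Of 13 genes in a list of CDK1 brakes and mitotic phosphatases 7 fell, with a median of -0.39, including the inhibitory kinase Wee1 (-0.98). The list also holds the CDK subunits Cks1b (-0.80) and Cks2 (-0.64), which fell too and are neither brakes nor phosphatases. Among 22 genes of the FOXM1, MYBL2, DREAM and E2F regulators 14 were called lower and 1 higher (Rb1, 0.56, named after its value was seen), with a median of -0.50. Mybl2 fell by 0.86 ± 0.10, the DREAM pocket protein gene Rbl1 by 0.92 ± 0.13 and Tfdp2 by 0.94 ± 0.15. The background for these counts is the 19.8% of all genes called lower and 17.9% called higher.

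Summed over a list, genes of neutrophil maturation rose in each Ogdh clone, but not in the order of the clones' mitotic falls. The mean net change was called higher for 12 of 16 neutrophil maturation genes and lower for 0, and the list had a median of 4.08, including Chil3 (3.91), S100a9 (4.67) and Itgam (2.07). Their summed level at day 4 was 45657 CPM in shOgdh346 clone 1, 20670 in clone 5, 7332 in shOgdh2081 clone 3 and 12858 in clone 5, and 474 and 1568 in control clones 2 and 7. At day 0 it was between 391 and 2418 CPM in the 6 clones. The median changes of the mitotic genes were -0.81 and -0.84 in shOgdh346 clones 1 and 5, and -0.84 and -0.47 in shOgdh2081 clones 3 and 5. Of 12 markers of myeloid progenitors and leukaemia 5 fell (Kit, Mpo, Elane, Prtn3 and Ctsg, with Kit at -1.03) and 3 rose (Itgam, Ptprc at 0.95 and Spi1). Their median was -0.09, and Itgam is counted in both lists. Beside the counts of both lists, 19.8% of all genes were called lower and 17.9% higher. The part of cell maturation in the fall of the mitotic genes was not tested.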

How the data were processed

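The files deposited by the authors hold whole-number counts for each Ensembl gene. The submitters' processing notes list featureCounts 1.6.3, STAR 2.6.1a, Trimmomatic 0.36 and FastQC 0.11.5, with the builds mm10 and GRCm38. Single-end TruSeq libraries of polyadenylated RNA were sequenced, per the labels' protocols. That protocol also speaks of a human build and an RPKM matrix, which whole numbers under mouse identifiers do not match. Neither the strand setting nor the treatment of reads with several matches is given in the sources used, so genes with near-identical copies or overlapping exons are uncertain. In GENCODE M21, 15 of the 55 genes share exonic bases with a gene on the opposite strand. The largest shares were 29.3% in Kif20a, 22.8% in Ube2c, 15.1% in Kif4, 13.4% in Ncapg, 12.7% in Cdc25c, 12.5% in Ccna2 and 11.1% in Prc1. Positions of genes are those of the deposited table, of which 50 of 55 matched that annotation base for base.

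Summing both libraries of a clone on a day left 12 sums. After filterByExpr and TMM scaling they were tested with edgeR 4.0.16 (robust quasi-likelihood, R 4.3.3, limma 3.58.1). The model had a block for the clone and, for each hairpin, a term for day 4. It had 3 residual degrees of freedom beside a median of 6.11 prior ones. The pairing of days by clone comes from the labels; deviations of the clones from their group means correlated between the days across genes at 0.84, 0.60 and 0.67. Levels within a day were tested in 6 groups without the block, with 6 residual degrees of freedom that are overstated, since each clone enters at both days. P-values describe the spread between clones, 2 per hairpin. All 14249 genes entered the Benjamini-Hochberg adjustment, with a threshold of 0.05. CPM (counts scaled to TMM-adjusted library totals) give levels, and log2 CPM of single clones or libraries used a prior count of 2. The fit was tested on simulated counts with known changes. DESeq2 1.42.0, other scalings, the filter, the block, the day 0 library number and leaving out each clone and library were the alternatives.

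The 55 members, their 8 roles and the context lists were chosen with earlier results of these data known. Values per library are given for 12 core genes chosen by role; otherwise named are the largest and smallest net change of each role, members that missed the threshold, members called in the control or between hairpins, the highest and lowest level per kilobase, and up to 3 genes per list by p. Other members are named to account for the whole set. Promoter sequences are from RefSeq (GRCm38.p6) and were matched by symbol; motifs were searched on both strands.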

Additional observations from a re-analysis of the deposited data

Results flagged for a closer look

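Among the 12 core genes and the summed level, 78 sets of 4 libraries were examined for 1 library far from the rest, and 2 stood out; chance marks about 1 in 20 such sets. Ccnb1 with shOgdh2081 at day 4 was 64.7 CPM in the first library of clone 5 and 57.3, 56.8 and 56.5 in the others, so that the gap was 0.902 of the range. Cdk1 in the control at day 0 was 288 CPM in the first library of clone 7 and 250, 243 and 249 in the others, a gap of 0.844 of the range. Neither set changed the side of the threshold of its gene when that library was left out.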

How the results depend on the processing

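Over 39 alternatives, 30 of which left out a clone or library, the mean net change kept between 41 and 52 of its 52 calls, 27 alternatives kept all 52, and 39 genes were called in all. No called gene changed direction. Leaving the clone out of the model (no replicate block) kept 41. The replicate block with all 24 libraries kept 52, but treats libraries of a clone as independent, so its p-values are too small. With shOgdh2081 the count of 46 was 24 with no replicate block and from 28 to 51 when 1 clone or library was left out. The hairpin difference had 0 calls except for 4 in the 24-library replicate block (11.8% of all genes). The control change, with 2 calls, had 5 without the low-count filter, 0 with no replicate block, 25 in the 24-library replicate block (39% of all genes), 11 with day 0 libraries numbered 1 alone (14.2%), 0 with those numbered 2 alone (0.912%), and from 0 to 6 when 1 clone or library was left out. The causes were not tested. With 2 clones per hairpin the tests rest on few replicates, and all p-values lean on a spread pooled over hairpins. Counts of the members, from 28 to 17996 per library, bound the precision least for Top2a and most for Cenpm.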
